A study of Xenopus laevis with 2 samples.

Results

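The genes of the DNA replication machinery were examined for accessible chromatin in embryos of the frog Xenopus laevis before zygotic genome activation (ZGA). They were picked by symbol among the RefSeq genes annotated on X. laevis v10.1, as the origin recognition, licensing, helicase, firing, clamp and polymerase genes of 36 base symbols. Genes were found for 35 of these symbols and none for recql4. Because X. laevis is an allotetraploid with an L and an S subgenome, a symbol can have 2 genes, named .L and .S. The search gave 46 genes, all protein-coding, out of 44438 genes on assembled chromosomes. Of the 46, 22 formed 11 homeologous pairs, and 24 had a single copy in the table (20 on L and 4 on S chromosomes). They lay on 15 of the 18 chromosomes and were 4119 to 181705 bp long, with a median of 18808 bp, against 17192 bp for all 34461 protein-coding genes.

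Both samples belonged to 1 group of wild-type (WT) whole embryos. At the 1-cell stage they were injected with Dam mRNA (2.3 ng of the pRN3P_AID-Dam-only construct). Embryos were then taken at the 256-cell stage, at 4.5 h post fertilization, with 500 embryos pooled per replicate. In CATaDa, free Dam methylase marks GATC motifs in open DNA, and the marked fragments are sequenced. Non-injected embryos were not analysed here, and pooled embryos give the average over all cells, so cells or embryos that differ cannot be told apart.

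Replication begins where the origin recognition complex (ORC) binds DNA. With Cdc6 and Cdt1 it loads the MCM helicase, and geminin (gmnn) restrains Cdt1. Cdc45 and the GINS complex turn the loaded MCM ring into the active helicase, with Treslin (ticrr), TopBP1 and the kinase subunit Dbf4 acting at this firing step. At the fork, DNA polymerases copy both strands, held by the sliding clamp PCNA, which the RFC complex loads. Frog eggs store these proteins for the fast cleavage cycles, when the embryo's own genome is largely silent.

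Each replicate was described by a list of broad peaks, 325974 in replicate 1 and 277551 in replicate 2. A peak found in both replicates, with an overlap of 1 bp or more, is termed shared. Peak coverage is the percentage of the bases of a gene, with 10 kb on each side, that lay in peaks. Without read counts the depth is unknown, and a missing peak does not show that a site was closed. With a single group there was no contrast between conditions, and all values below are descriptions with no test. Genes are not replicates of a condition.

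Replication genes held peaks about as often as other genes. Every one of the 46 had at least 1 peak within 10 kb in each replicate. A shared peak lay there in 44 of them (95.7%), against 95.1% of all protein-coding genes. At least that 95.1% also had a peak in each replicate, since a shared peak counts for both. Inside the gene itself, 35 of 46 (76.1%) had a shared peak, against 72.6% of protein-coding genes. The 2 genes with no shared peak within 10 kb were mcm5.S and mcm9.L. Replicate 1 had more peaks than replicate 2 at 30 genes, fewer at 6 and as many at 10. The matching split over protein-coding genes was not computed. Their median number of peaks per 10 kb was also higher in replicate 1, at 1.25 against 1.05. The median coverage was 5.66% in replicate 1 and 4.98% in replicate 2, and 5.33% ± 0.482 (SD over replicate medians, n = 2) for the mean of both. For protein-coding genes the medians were 5.12% and 4.74%, lower in each replicate, and 4.96% for the mean of both. The SD is the spread between the 2 libraries and does not measure the difference between gene sets. Shared peaks numbered 0.834 per 10 kb in the median replication gene and 0.823 in the median protein-coding gene.

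The spread among replication genes was wide, from 1.06% in mcm5.S to 11.4% in cdc6.S. Coverage was above the protein-coding median in 26 of 46 genes. Of the genes outside the middle 50% of protein-coding genes, which ran from 3.51% to 6.56%, 13 lay above it and 12 below. Across the 46 genes, coverage in replicate 1 and replicate 2 had a Pearson correlation of 0.736 and a Spearman correlation of 0.774, against 0.762 and 0.745 across all protein-coding genes. These points share the same 2 libraries and the same GATC positions.

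**Figure D1:**
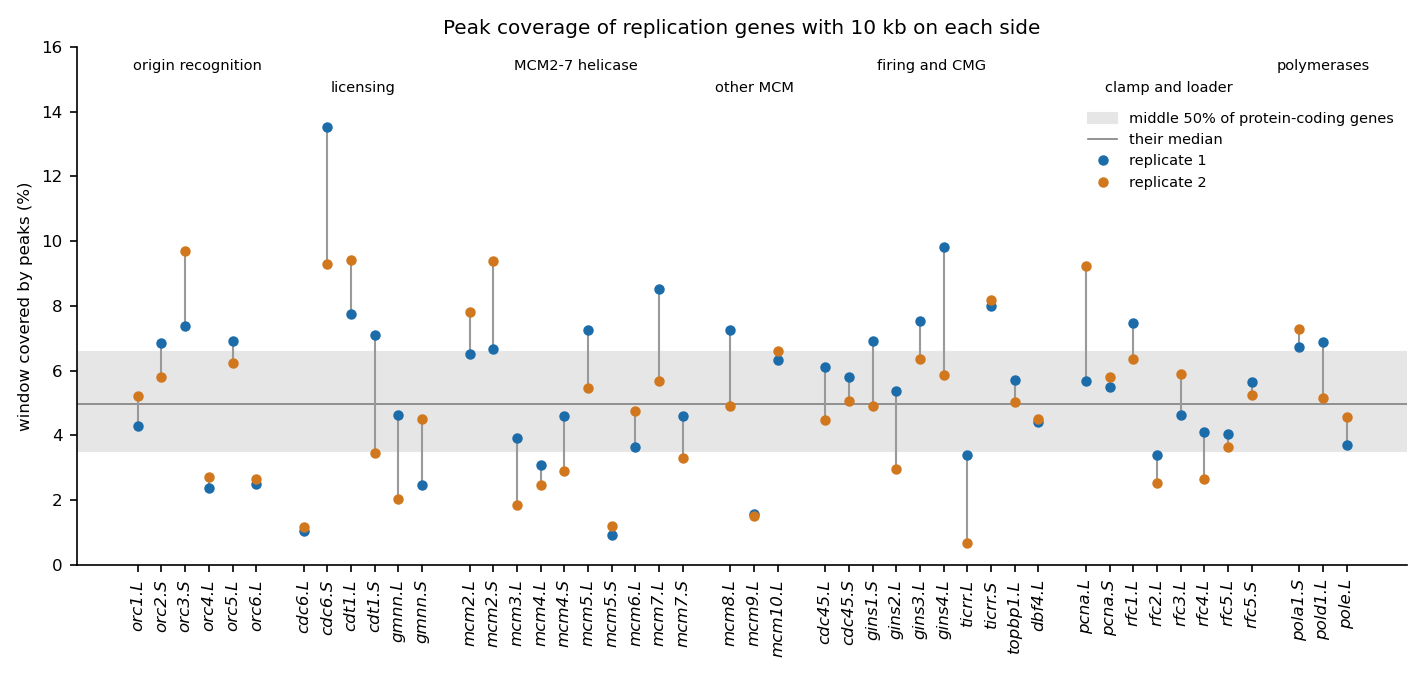
Peak coverage (vertical axis, percent of bases in peaks, gene with 10 kb on each side) of each of the 46 genes, grouped by role, with a point for each replicate and a line joining them. The grey band marks the middle 50% of protein-coding genes, and cdc6.S has the highest mean, cdc6.L and mcm5.S have the lowest means, and the lowest single point is ticrr.L in replicate 2, at 0.681%.

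**Figure D2:**
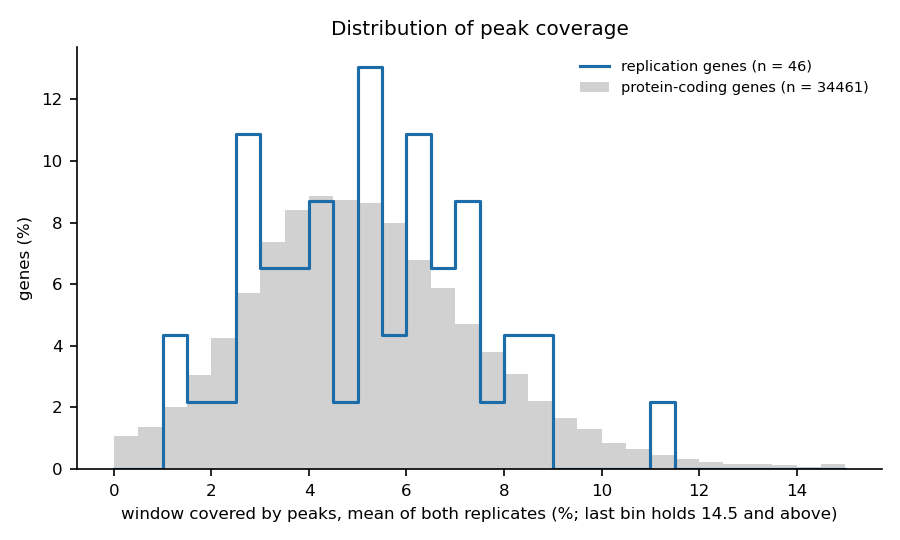
Distribution of peak coverage (horizontal axis, percent, mean of both replicates) for 46 replication genes (line) and 34461 protein-coding genes (bars), each as a percentage of its genes per bin of 0.5 percentage points. The medians are 5.33% and 4.96%, and the replication genes lie between 1.06% and 11.4%, while protein-coding genes also fill bins below and above these values.

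The ORC subunits were each present as a single copy. All 6 had a shared peak within 10 kb, as did 95.1% of protein-coding genes. The highest coverage was at orc3.S (gene ID 379084, 5S, 74071480 to 74127830), with 7.39% in replicate 1 and 9.68% in replicate 2. It carried 12 and 15 peaks, 9 of them shared, and the widest overlap of any peaks at replication genes, 1314 bp inside the gene. The lowest was at orc4.L (gene ID 397923, 9_10L, 67546891 to 67569836), with 2.37% and 2.71%. No peak of either list lay within the 22946 bp of orc4.L, whereas 3 shared peaks lay in its flanks, inside the neighbouring genes acvr2a.L and mbd5.L. The longest stretch free of peaks in its window was 31752 bp, the longest at any replication gene. Among protein-coding genes of 20 kb or more, 0.739% had no peak of either list in the gene body, against 15.4% of all protein-coding genes. orc4.L is near the lower limit of that class, which also holds much longer genes. The share among genes of its length was not computed. The smaller orc6.L, which was 6553 bp long, also had no peak in its body, and its only shared peak lay in the neighbouring vps35.L. The replicate values of orc4.L and orc6.L were below those of the other 4 subunits. orc1.L had coverage of 4.27% and 5.21%, orc2.S of 6.84% and 5.79%, and orc5.L of 6.90% and 6.23%.

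The licensing genes ranged from 1.09% at cdc6.L to 11.4% at cdc6.S. At cdc6.S (gene ID 398082, 9_10S, 1513583 to 1521220), coverage was 13.5% in replicate 1 and 9.31% in replicate 2. Its mean of 11.4% ± 2.98 (SD, n = 2) exceeded that of 98.7% of protein-coding genes. At cdc6.L (gene ID 403388, 9_10L, 1746881 to 1757134) coverage was 1.02% and 1.15%, from a single shared peak inside the gene. Cdc6 is the ATPase that joins ORC in loading the helicase. For cdt1.L, coverage was 7.74% and 9.42%, with 7 shared peaks or 2.23 per 10 kb, the highest density of shared peaks among the 46 genes. Their fold enrichment, as the geometric mean of both replicates, ran from 2.63 to 5.68, against a median of 4.87 over all shared peaks. The value of 2.63 was the lowest among shared peaks at replication genes. For cdt1.S coverage was 7.11% and 3.45%, with 1 shared peak. The geminin genes were low, with 4.63% and 2.03% at gmnn.L and 2.47% and 4.49% at gmnn.S. Their replicates differed in opposite directions and overlapped.

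The 10 genes of the helicase ring, mcm2 to mcm7, had a median coverage of 4.06%, with 4 of 10 above the protein-coding median. Both mcm2 copies were high. Coverage was 6.52% and 7.80% at mcm2.L, and 6.65% and 9.40% at mcm2.S, where 7 peaks were shared. At mcm4.L coverage was 3.08% and 2.45%, and at mcm4.S it was 4.60% and 2.90%. No peak of either list lay within mcm4.L, and 3 peaks lay within mcm4.S in replicate 1 but none in replicate 2. mcm4.L (6L, 120802531 to 120813632) had a shared peak 6578 bp from its end, inside prkdc.L, the gene of the catalytic subunit of DNA-dependent protein kinase. That peak had a fold enrichment of 14.9 in replicate 1 and 9.83 in replicate 2. mcm3.L likewise had 3 peaks in the gene in replicate 1 and none in replicate 2, with coverage of 3.92% and 1.86%. mcm6.L, whose product is the maternal form of its subunit in Xenopus, had coverage of 3.63% and 4.73%. At mcm7.L coverage was 8.51% and 5.68%, and at mcm7.S it was 4.60% and 3.28%. Mean coverage of the 10 single genes ranged from 1.06% at mcm5.S to 8.03% at mcm2.S.

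Of the other MCM genes, mcm10.L encodes a fork factor and had coverage of 6.34% and 6.60%, with 5 shared peaks. mcm8.L and mcm9.L encode a helicase pair that acts in recombination. Coverage at mcm8.L was 7.24% and 4.89%, above the 1.56% and 1.50% at mcm9.L in each replicate. The 2 peaks of mcm9.L in replicate 1 lay in the gene and its 1 peak in replicate 2 lay in a flank, so none was shared.

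The firing genes and the partners of MCM in the active helicase numbered 10, and 7 of them were above the protein-coding median. All 10 had a shared peak within 10 kb, as did 95.1% of protein-coding genes. Among the GINS subunits, gins4.L had 9.82% and 5.87%, gins3.L had 7.52% and 6.36%, and gins2.L was lowest in each replicate, with 5.36% and 2.94%. gins1.S had 6.92% and 4.91%. No peak of either list lay in the body of gins2.L. The 4119 bp of gins3.L, the shortest gene of the set, were covered to 7.53% in replicate 1 and 19.0% in replicate 2. topbp1.L had coverage of 5.71% and 5.04% with 7 shared peaks, and dbf4.L had 4.41% and 4.50% with 2. One of those at dbf4.L, 1186 bp wide in the overlap, lay inside the gene and also inside LOC121394536, a protein-coding gene overlapping it. The cdc45 copies overlapped in coverage, at 6.10% and 4.48% on L and 5.81% and 5.06% on S, but not in how it was split. The body was covered to 1.73% and 0.592% on L and to 5.99% and 6.83% on S.

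Each of the 8 clamp and clamp loader genes had a shared peak inside the gene, against 76.1% of all replication genes and 72.6% of protein-coding genes. So did all 3 polymerase genes and 8 of 10 firing genes. The count was 4 of 6 for the ORC genes, 4 of 6 for licensing, 6 of 10 for the helicase ring and 2 of 3 for the other MCM genes. These groups are small. pcna.L had coverage of 5.67% and 9.22%, and pcna.S of 5.49% and 5.80%, with 3 shared peaks each. Among the RFC subunits, rfc1.L was highest, with 7.45% and 6.36%. Its flanks were covered to 13.1% and 13.3% and its body to 4.80% and 3.12%. rfc2.L was lowest, with 3.39% and 2.52% and 1 shared peak. rfc4.L had 4.09% and 2.65%, and rfc3.L had 4.62% and 5.88%. rfc5.L had 4.04% and 3.64%, and rfc5.S had 5.64% and 5.25%.

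The catalytic polymerase subunits were long genes with many peaks. pola1.S, the subunit that starts DNA strands with primase, spanned 181705 bp on 2S (29847358 to 30029062) and had 32 peaks in each replicate. Of these, 27 were shared, which was 13.6% of all shared peaks at replication genes. Per 10 kb this came to 1.34, against the median of 0.834 for replication genes, and coverage was 6.74% and 7.27%. pold1.L, the lagging strand polymerase, had 1.09 shared peaks per 10 kb and coverage of 6.87% and 5.16%. pole.L, the leading strand polymerase, had 0.838 per 10 kb and coverage of 3.70% and 4.57%.

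The bodies and flanks of the genes were then compared. Body coverage was above flank coverage in both replicates for 13 of 46 genes (28.3%), against 35.0% of protein-coding genes. It was below flank coverage in both for 18 (39.1%), against 39.7% of protein-coding genes. The median of body minus flank was -0.586 percentage points in replicate 1 and -0.102 in replicate 2, against -0.182 and -0.220 over protein-coding genes. mcm5.L had the clearest excess in the body, with 13.8% and 11.3% inside the gene and 3.24% and 1.84% in the flanks. In all, 4 of 46 genes had no peak of either list in the body (orc4.L, orc6.L, mcm4.L and gins2.L), against 15.4% of protein-coding genes. A further 5 genes had body peaks in replicate 1 alone (mcm3.L, mcm4.S, cdt1.S, gmnn.S and mcm9.L), and mcm5.S in replicate 2 alone. Replicate 1 had the longer list of peaks, and the matching shares of protein-coding genes were not computed.

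Strand was not used here, so each end of a gene, with 1 kb to either side, stood in for promoters. A shared peak lay in such a window for 16 of 46 genes (34.8%), against 34.2% of protein-coding genes. Both ends were marked in 5 genes (cdt1.L, mcm2.S, cdc45.S, ticrr.S and rfc1.L). Of the 92 ends, 22.8% had a shared peak, against 19.4% of the ends of protein-coding genes. The other 11 genes, with 1 end marked, were orc1.L, orc3.S, gmnn.S, mcm2.L, mcm10.L, cdc45.L, gins3.L, pcna.L, pcna.S, rfc3.L and pold1.L. At pcna.S (3S, 30617838 to 30623298) the peak ran from 30623108 to 30623562 in both replicates, across the gene end, with a fold enrichment of 5.96 and 4.82. At pold1.L (7L, 123298044 to 123369791) it ran from 123297299 to 123297678 in both, with 11.1 and 14.9.

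Among the origin and licensing genes, the peak at orc1.L lay just beyond the gene, inside LOC108714318, with a fold enrichment of 9.51 and 7.55. That at orc3.S had 10.2 in replicate 1 and a lower value in replicate 2, and that at gmnn.S had 10.7 and 5.91. At cdt1.L, the lower end had a peak with 6.38 and 4.87, and the upper end had a peak inside the gene, with 3.12 and 5.48, and one beyond it, with 4.27 and 4.78. Of the helicase genes, mcm2.S had a peak with 10.3 and 4.59 at its lower end and one with 8.65 and 8.36 at its upper end. At mcm2.L, the peaks had 4.78 and 3.55, and 8.04 and 4.98, both at the same end. The peak of mcm10.L was weak, with 2.76 and 3.30.

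Of the firing genes, gins3.L had an end peak with a fold enrichment of 5.68 and 2.95. ticrr.S had 7.76 and 5.46 at its lower end and, in an overlap 840 bp wide, 5.25 and 4.86 at its upper end. Of the clamp and loader genes, pcna.L had its peak 646 bp beyond the gene, with 11.7 and 13.3, and rfc3.L had 14.8 in each replicate, inside the gene. At rfc1.L the ends had 3.34 and 4.34, and 4.81 and 3.24. The strongest of these end peaks were at rfc3.L, pold1.L and pcna.L, and the weakest at mcm10.L.

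Homeologs that kept the same neighbour allowed the gene ends of L and S copies to be matched. cdc45 lay beside ufd1 on both chromosomes, 102 bp apart on L and 146 bp apart on S, and in both the end facing ufd1 had a shared peak. On L this peak had a fold enrichment of 2.87 and 5.38, and the middle of the overlap lay inside ufd1.L, 639 bp outside cdc45.L. On S the peak had 3.54 and 4.18, and its overlap crossed the end of cdc45.S. The other end of cdc45.S was marked too, with 4.73 and 9.02. pcna lay beside tmem230 on both. The marked end of pcna.L faced tmem230.L, whereas the marked end of pcna.S was the one away from tmem230.S. In cdc6, beside wipf2, and in mcm5, beside ndufa6, neither end was marked on L or S. gmnn lay beside c6orf62 on both chromosomes, and the end facing it had a shared peak on S but not on L. Of the 11 pairs, 3 had a shared peak at a gene end of both copies (mcm2, cdc45 and pcna), 3 in one copy alone (cdt1, gmnn and ticrr) and 5 in neither. The matching split over all pairs of protein-coding genes was not computed, so these counts have no background. Taken singly, 34.2% of protein-coding genes had such a peak.

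The authors' fold enrichment of a peak is the pileup of reads over the background of the caller. At replication genes, 199 of 301 peaks of replicate 1 (66.1%) and 196 of 241 peaks of replicate 2 (81.3%) were shared, against 66.6% and 77.8% over all peaks. Of the shared peaks of replicate 1, 109 had the middle of the overlap in the gene. Among the 90 in the flanks, 30 lay in another gene and 60 outside genes. The median of the geometric mean of both replicates was 5.05, against 4.87 over all shared peaks. Across the 199 peaks, fold enrichment in the replicates had a Spearman correlation of 0.687, against 0.620 across all shared peaks, and these points share libraries and GATC positions. The coordinates were identical in 18 pairs (9.05%), against 12.1% of all shared pairs.

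The highest shared peak lay 3499 bp outside rfc5.S, on 1S from 153416245 to 153416617 in both replicates, with a fold enrichment of 20.1 and 22.3. This exceeded 99.9% of all shared peaks. The next lay inside pole.L, on 1L from 156145474 to 156145809 in replicate 1, with 19.4 and 13.9. The third lay inside rfc5.L, on 1L from 179278939 to 179279250 in replicate 1, with 17.3 and 13.0. Both copies of this clamp loader subunit were thus among the 3 highest, but the peak was in the flank on S and in the gene on L. The other peaks of the 8 highest were at rfc3.L (14.8 in each replicate), orc3.S (15.2 and 12.8), orc1.L (16.2 and 11.6), pold1.L (11.1 and 14.9) and mcm7.L (11.4 and 14.2). Those of pold1.L and rfc3.L were also the peaks at their gene ends. Their widths in replicate 1 were between 312 and 383 bp, against a median of 336 bp over all peaks. The widest overlaps, at orc3.S, dbf4.L and pola1.S, had fold enrichment between 3.82 and 5.79 in the replicates.

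**Figure D3:**
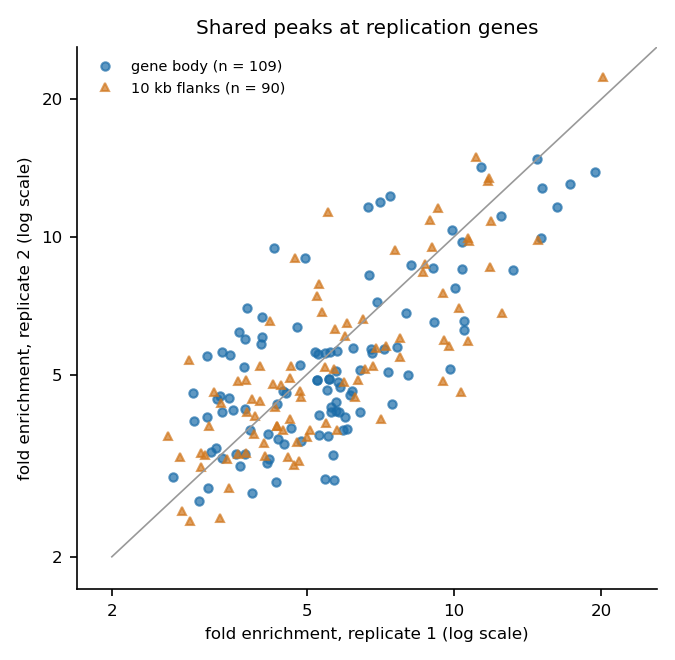
Fold enrichment of the 199 shared peaks in replicate 1 (horizontal axis) and replicate 2 (vertical axis), both on log scales, with circles for peaks in gene bodies and triangles for peaks in the 10 kb flanks. The line marks equal values, and the flank peak of rfc5.S lies highest, at 20.1 and 22.3.

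The L and S copies of the 11 paired genes were compared next. Coverage was higher on S in 7 of 11 pairs, against 56.3% of 7764 pairs of protein-coding genes. By replicate, S was higher in 5 pairs in replicate 1 and in 7 in replicate 2. The median difference, S minus L, was 0.150 percentage points, but -0.179 in replicate 1 and 0.579 in replicate 2, so its direction depended on the replicate. It was 2.14 with flanks of 5 kb and 2.25 in the gene body alone, so its size depended on the window. The median over all pairs was 0.388. Taking paired and single genes together, the 31 genes on L chromosomes had a median coverage of 4.63% and 4.73% in the replicates and the 15 on S had 6.65% and 5.25%, against 4.97% and 4.58% for protein-coding genes on L and 5.34% and 4.96% on S. The size of the difference had a median of 1.80 percentage points, against 1.65 over all pairs. In 6 of 11 pairs the replicate values of the copies did not overlap, 3 with S higher (cdc6, ticrr and rfc5) and 3 with L higher (mcm5, cdt1 and mcm7). Copies did not overlap in 62.9% of all pairs, and did so with S higher in 36.6%.

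The largest difference was at cdc6, with 10.3 ± 3.07 percentage points (SD, n = 2) more on S, larger than in 99.9% of all pairs. The flanks of cdc6.L held no peak of either list, and those of cdc6.S were covered to 14.1% and 8.57%. Within 50 kb on each side, coverage was 6.70% and 6.92% at cdc6.L and 9.05% and 7.75% at cdc6.S. In this wider window the copies were closer, with S higher in each replicate. The window contains the gene and its 10 kb flanks, so these values do not show which copy was higher beyond 10 kb. The S copy had 4 shared peaks, 1 in the gene and 3 in the flanks, with fold enrichment between 2.94 and 4.91 in the replicates. The single peak of cdc6.L had 4.49 and 3.53. The geometric mean of both replicates was at most 4.76 for these shared peaks, below the median of 4.87 over all shared peaks. An unshared peak of replicate 1 inside cdc6.S had a fold enrichment of 8.48. An unshared peak of replicate 2, also with 8.48, began 17622 bp from the lower gene end. It lay at the edge of the window, and most of it was outside.

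ticrr encodes Treslin, a limiting factor for origin firing in Xenopus embryos. Its S copy (gene ID 108712846, 3S, 44865141 to 44913945) had coverage of 7.98% and 8.17% with 8 shared peaks. Its L copy (gene ID 443616, 3L, 115497752 to 115532523) had 3.38% and 0.681% with 1 shared peak. The difference was 6.04 ± 2.04 percentage points (SD, n = 2).

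At mcm5 the L copy (gene ID 380587, 4L, 112738339 to 112750653) was higher, with 7.26% and 5.46% and 5 shared peaks. The S copy (gene ID 379699, 4S, 94513628 to 94526996) had 0.929% and 1.19% and 1 unshared peak in each replicate. S minus L was -5.30 ± 1.46 percentage points (SD, n = 2). The fourth pair by size was cdt1, at -3.30 ± 3.78 (SD, n = 2), and its difference came mostly from replicate 2, with -5.97, as replicate 1 gave -0.626. For mcm7, S minus L was -3.16 with the flanks but 0.205 in the gene body alone. The flanks of mcm7.L were covered to 9.82% and 5.57%, and those of mcm7.S to 1.88% in replicate 1, with no peak in replicate 2. At rfc5, S minus L was 1.61 percentage points in each replicate.

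The smallest differences were at cdc45, with 0.148 ± 0.611 (SD, n = 2), gmnn, with 0.150 ± 3.27 (SD, n = 2), and mcm2, with 0.866 ± 1.04 (SD, n = 2). In all 3 the replicate values of the copies overlapped. For cdc45 the small value joined opposite differences, with S minus L at 4.26 and 6.23 percentage points in the body and -4.42 and -5.17 in the flanks. For gmnn the small mean joined replicate differences of opposite sign.

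**Figure D4:**
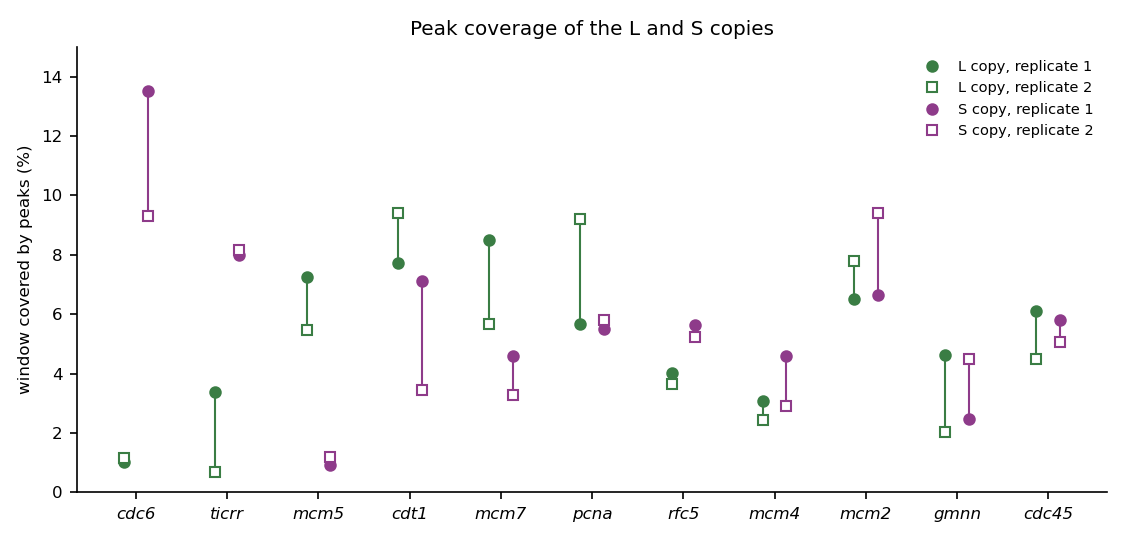
Peak coverage (vertical axis, percent, gene with 10 kb on each side) of the L and S copies in 11 homeologous pairs, ordered by the size of the difference, with circles for replicate 1, squares for replicate 2 and a line joining them. The copies of cdc6, ticrr and mcm5 are far apart, and those of cdc45, gmnn and mcm2 overlap.

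**Figure D5:**
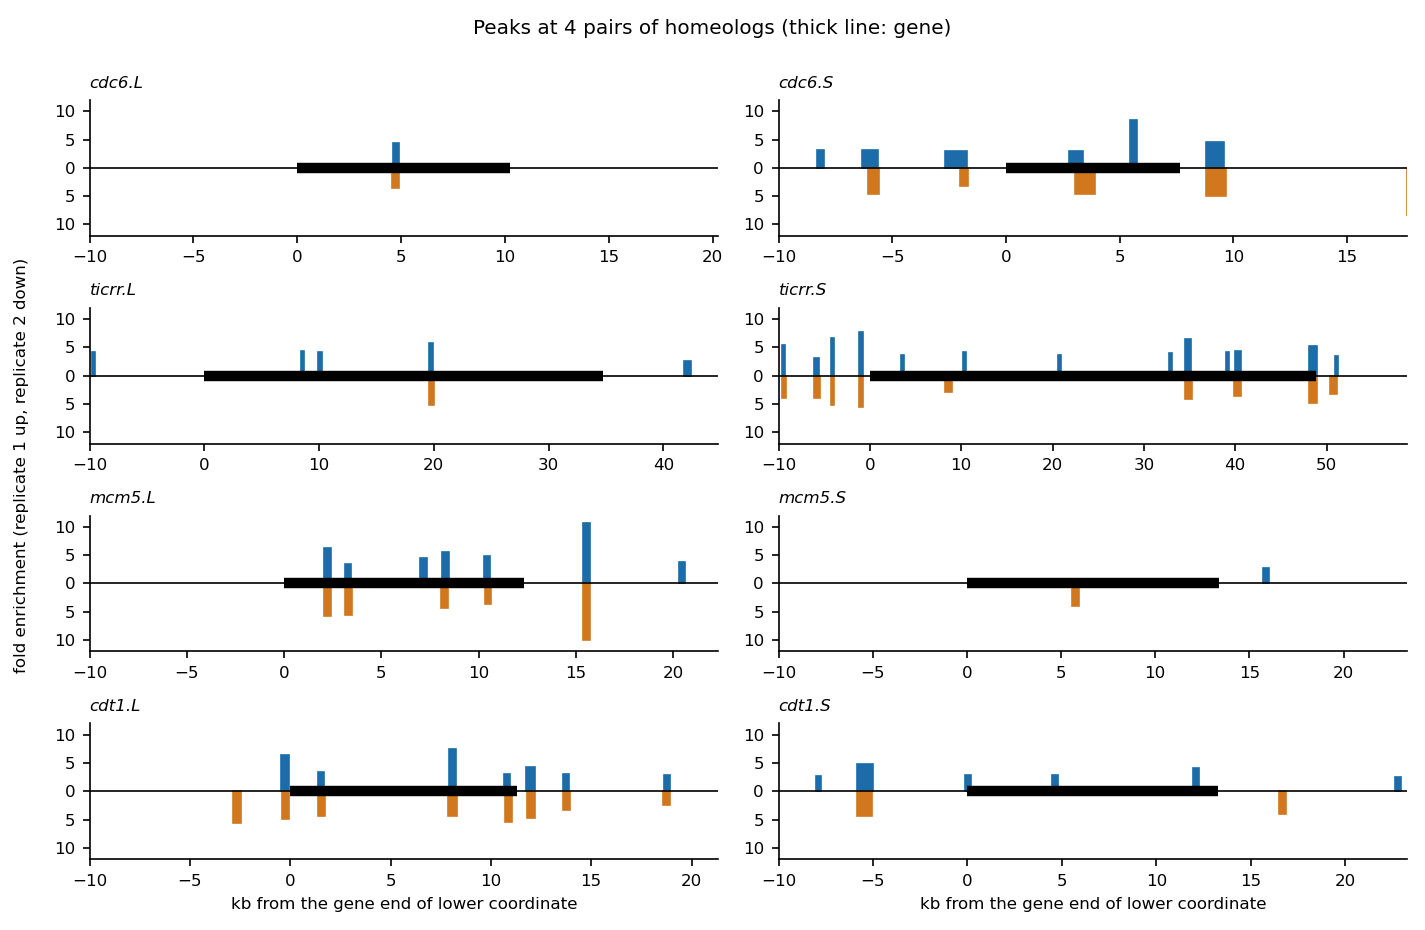
Peaks at both copies of cdc6, ticrr, mcm5 and cdt1, by distance in kb from the gene end of lower coordinate (horizontal axis), drawn to scale with the height giving fold enrichment, replicate 1 upward and replicate 2 downward. Thick lines mark genes, and a peak drawn on both sides at the same place is shared, as for the single peak of cdc6.L and the 5 shared peaks of mcm5.L.

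Other genes of replication were taken from a separate list of 46 symbols, 42 of which were found, as 55 genes. A shared peak lay within 10 kb of 53 of them (96.4%) and inside 41 (74.5%), against 95.1% and 72.6% of protein-coding genes. In 15 (27.3%) a shared peak lay within 1 kb of a gene end, against 34.2% of protein-coding genes. Their median coverage was 5.31%. The 2 with no shared peak, named after their values were seen, were clspn.S, encoding the checkpoint mediator Claspin, and pole2.L, encoding the second subunit of polymerase epsilon. pole2.L had no peak in replicate 1 and coverage of 0.986% in replicate 2. The mcm6.2 and dbf4b genes were picked from this list by no rule set beforehand. Of the zygotic forms of the MCM6 subunit, mcm6.2.L had 10.3% and 8.44%, above the 3.63% and 4.73% of the maternal mcm6.L. For mcm6.2.S the values were 6.51% and 3.96%, which overlapped those of mcm6.L. dbf4b.L, which encodes the Dbf4 relative Drf1, had 6.40% and 3.63%, overlapping dbf4.L.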

How the data were processed

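CATaDa libraries of 2 replicates were mapped by the authors with Bowtie2 to X. laevis v10.1 through the damidseq pipeline, and broad peaks were called by the authors per replicate with MACS3 3.0.1. The control and cutoff of the caller are not given in the sources used here. The deposited positions give each peak's start and end, printed here counted from 1. The deposited fold enrichment is a ratio of pileup to background averaged over the peak. The deposited -log10 q values, at least 1.01 in replicate 1 and 1.00 in replicate 2, served only to filter. Depth is unknown.

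Peaks were set against the RefSeq genes with Python 3.11.15, numpy 2.4.6 and pandas 2.3.3. Shared peaks were counted as peaks of replicate 1 whose common stretch touched the gene or window. The interval functions were tested on simulated data. All genes in the list were retained without a filter on low values. Strand and sequence were not used here, so planned gene starts became gene ends, and promoter motifs were not searched. Dam marks only GATC, and peaks were not normalised to GATC density. Genes named with values were those with a shared peak at an end or no peak in the body, the 8 highest and 3 widest shared peaks, the 4 most and 3 least different pairs, and the 3 highest and lowest genes. Values of the other genes are given by role. The genes and lists were chosen with earlier results of these data known. Alternatives covered the peak threshold, flank, overlap, merging and replicates.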

Additional observations from a re-analysis of the deposited data

How the results depend on the processing

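All alternatives were planned, except those for single pairs, which were chosen after seeing the data. With both replicates kept, 38 summary values were recomputed, of which 28 stayed within the replicate SD or, for counts, within 1.5 times, and 10 moved further. Keeping the 50% of peaks with the higher fold enrichment moved the median coverage to 2.63%, shared peaks per 10 kb to 0.389 and body minus flank to 0.0. It moved S minus L to 0.724 percentage points, the median fold enrichment to 6.78 and the other replication genes with a marked end to 9. The changes in coverage, shared peaks per 10 kb, fold enrichment and marked ends followed by construction. A minimum of 2 for -log10 q moved the median fold enrichment to 5.21, by construction. Gene bodies alone gave a median coverage of 4.85% and an S minus L of 2.25, and flanks of 5 kb gave an S minus L of 2.14. The cause of the other changes was not tested. For mcm7, S minus L was reversed to 1.66 with flanks of 5 kb and to 0.205 in the gene body. The directions of cdc6, ticrr, mcm5, cdt1 and rfc5 held under every alternative run, with mcm5 reaching -11.1 in the gene body. The sizes changed, however. With the 50% of peaks of higher fold enrichment, S minus L shrank to 5.5 for cdc6 and 2.81 for ticrr. In that setting it was -4.32 for mcm5 and -2.32 for cdt1, and it grew to 2.26 for rfc5.

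Leaving out each replicate, where any peak of the other counts, gave 46 genes with a peak within 10 kb in either case, 37 to 41 with one in the body, 18 to 23 at a gene end, 20 to 26 for the other replication genes, a median coverage of 4.98% to 5.66%, 1.10 to 1.43 peaks per 10 kb, a body minus flank of -0.586 to -0.102, an S minus L of -0.179 to 0.579, 5 to 7 pairs with S higher and a median fold enrichment of 4.47 to 4.59. The planned narrow window around the gene start was not run, since strand was not used. No paired analysis was possible because there is a single group.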

Other observations

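Genes related to the set by synonym, named after their values were seen, were as follows. zmcm3.L, the zygotic form of MCM3, had coverage of 9.44% and 8.21% with 8 shared peaks, above the 3.92% and 1.86% of mcm3.L in each replicate. rts on 2L, which the table gives XRecQ4 as a synonym, had 7.32% and 6.99% with 3 shared peaks, 1 of them in the gene.

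From the separate list of replication genes, and also named after their values were seen, asf1a.L, encoding a histone chaperone, lay within 10 kb of mcm9.L, and both were low. asf1a.L had coverage of 1.26% and 1.53%, close to the 1.56% and 1.50% of mcm9.L, and their windows overlap. The copies of chaf1a, encoding the large subunit of chromatin assembly factor 1, differed, with 6.49% and 6.69% on L and 2.14% and 1.31% on S.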
